A study of Mus musculus with 18 samples.

Results

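Neutrophils from the bone marrow (BM) and the blood (Blood) of mice were compared, which sets cells at their site of production against cells that have left it. The comparison used 6 of the 18 libraries of a series on neutrophils from 6 tissues, 3 from BM and 3 from Blood, chosen by the tissue their labels give. All 6 came from adult C57BL/6 mice aged 8 to 12 weeks that carried no stated transgene or treatment, and the cells were sorted by flow cytometry on CD45, CD11b and Ly6G with the dye DAPI, at purities given as typically over 95%. The labels name neither the sex of the mice nor whether replicates came from separate animals, so each p reflects spread among libraries that may be technical.

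Neutrophils are made in the marrow from dividing precursors. Azurophil granule proteins such as myeloperoxidase are made first, at the promyelocyte stage, specific granule proteins such as lactoferrin and cathelicidin follow once division is ending, and gelatinase granule proteins come last. The mature cells stop making most granule proteins, lose their capacity to divide, and are held in the marrow by the receptor Cxcr4 and drawn out through Cxcr2. A Ly6G sort of marrow takes mature neutrophils together with late precursors.

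Values are scaled counts: estimated read counts per gene divided by the size of the library and not by gene length. Levels are therefore compared between libraries and not between genes. Estimated counts totalled 8539155 to 9987359 in the BM libraries and 8191614 to 9379928 in the Blood libraries. A gene entered the test when its scaled count was at least 1 in at least 3 of the 6 libraries. Differences are BM minus Blood on log2(scaled count + 1), which understates changes of low genes, and each is written with its standard error. They were tested with limma, with p-values adjusted by Benjamini-Hochberg across the 11770 genes that entered. A gene called higher or lower had an adjusted p under 0.05.

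BM replicate 2 stood apart. Its root mean square deviation from the mean of its group was 1.07 on the log2 scale against 0.592 to 0.808 in the other 5 libraries, 11860 of its genes were above the floor against 13424 to 15207 in the others, and the first principal component, with 44.9% of the variance, set it apart from the rest. The count of all calls is therefore also given without it. Ly6g, the gene of the sorting antigen, measured 291, 566 and 352 in BM and 102, 237 and 69.3 in Blood (1.69 ± 0.38 log2, adjusted p = 0.0217), a call that was lost without BM replicate 1, Blood replicate 1 or Blood replicate 3. S100a8 and S100a9, the alarmins that fill the neutrophil cytosol, were high in every library. S100a9 measured 17666, 23159 and 17982 in BM and 14363, 15001 and 13207 in Blood. Each BM library lay above each Blood library, as for 12.3% of tested genes, but the difference of 0.46 log2 did not pass (limma adjusted p = 0.501).

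In all, 463 genes were called, 3.93% of those tested: 267 were higher in BM (2.27%) and 196 lower (1.67%). The counts of each list below stand against these shares. An unadjusted limma p under 0.05 was reached by 2069 of the 11770 tested genes. The median of all tested genes lay at -0.05. Called genes moved by a median of 1.83 where higher and -1.65 where lower, and 110 of the higher and 77 of the lower changed by more than 4-fold on this scale. The 3 BM libraries all lay above the 3 Blood libraries for 1443 tested genes (12.3%) and below them for 1380 (11.7%). Without BM replicate 2 the call count was 478, with 222 higher and 256 lower, and 370 of the 463 genes were called again. The count fell to 191 without BM replicate 1, to 186 without Blood replicate 1 and to 231 without Blood replicate 2. It fell further, to 5, when limma's prior for the spread was a single value for all expression levels. It was 15 when genes at low values were kept, and 48 when the other tissues' libraries shared the estimate of the spread. These last 3 settings changed the spread estimate or the genes tested and left the differences as they were. The directions of the 463 genes could therefore not change in them. Of the 136 called genes named here, 49 were called again without each of the 6 libraries in turn, and 11 left the test when a library of their higher group was left out, because they passed the filter only through that group.

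**Figure D1:**
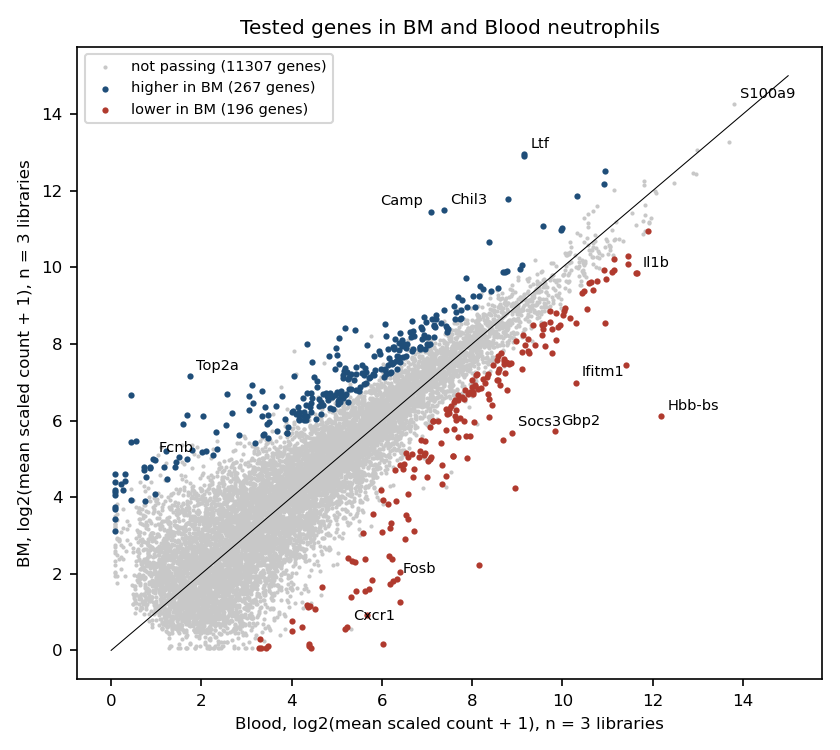
Each point is a tested gene, with its mean scaled count in Blood (x axis) and in BM (y axis), both as log2(mean + 1) over 3 libraries, and the line marks equal levels. The 267 genes higher in BM lie above the line and the 196 lower genes below it, with the abundant S100a9 near it.

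Genes of specific and gelatinase granules were higher in BM where they were called. Of 26 tested, 13 were higher in BM, 0 were lower (1 at an unadjusted p under 0.05) and 13 were not called, with a median log2 difference over the tested members of 1.10, against -0.05 over all tested genes. The count was 11 without BM replicate 2 and between 9 and 12 when each library was left out in turn, but 1 with all 18 libraries in the fit. Camp, the cathelicidin antimicrobial peptide, measured 2541, 3119 and 2758 in BM and 56.5, 93.6 and 252 in Blood. Every BM library was at least at 2541 and no Blood library was above 252 (4.65 ± 0.39 log2, adjusted p = 1.31e-05). Ltf, the iron-binding lactoferrin, measured 7909.7, 8184 and 7753 in BM and 142, 448 and 1111 in Blood (4.26 ± 0.49 log2, adjusted p = 0.000254), so the BM libraries were close to each other while Blood spread widely. Ngp, a neutrophilic granule protein of the cystatin family, measured 5762, 8987 and 8189 in BM and 188, 479 and 1019 in Blood (4.05 ± 0.44 log2, adjusted p = 0.000201). In Blood all 3 of these genes were lowest in replicate 1 and highest in replicate 3. Ltf and Ngp lost their calls when limma's prior for the spread was fitted robustly, while Camp kept its own.

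Further specific granule genes were called. Cd177, a surface glycoprotein kept in these granules, measured 1369.5, 2000.1 and 1524 in BM and 228, 425 and 345 in Blood (2.32 ± 0.26 log2, adjusted p = 0.000219). Anxa3, an annexin that binds granule membranes, measured 162, 159 and 162 in BM and 23.7, 39.2 and 27.3 in Blood (2.42 ± 0.31 log2, adjusted p = 0.000679). Both groups were tight, and BM lay above Blood without overlap, as it did for 12.3% of all tested genes. Also higher were Itgb2l (3.36), a beta-integrin-like gene, Olfm4 (2.97), the olfactomedin that marks a subset of neutrophils, Ceacam1 (1.49), B4galt1 (1.60) and Mmp25 (1.197), a membrane-bound metalloproteinase. Mmp8, the neutrophil collagenase, measured 3935, 4470.1 and 2833 in BM and 948, 1464 and 1423 in Blood (1.55 ± 0.27 log2, adjusted p = 0.00458). Lcn2, the siderophore-binding lipocalin, measured 3392, 5463 and 4967 in BM and 1395, 2590.2 and 1828 in Blood (1.27 ± 0.29 log2, adjusted p = 0.0240). The call of Mmp8 was lost without Blood replicate 1, and that of Lcn2 without BM replicate 2 or 3 or Blood replicate 1 or 3. Mmp9, the gelatinase made last, measured 2212, 3275 and 3831 in BM and 1569, 1523 and 2104 in Blood and did not pass (0.82 ± 0.27 log2, adjusted p = 0.111).

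Azurophil granule genes were called in both directions, but 11 of those tested had a positive difference and 2 a negative one. At an unadjusted limma p under 0.05, 5 were higher and 1 lower. Of 13 tested, 3 were higher, 1 was lower and 9 were not called, around a median of 0.55. Mpo, myeloperoxidase, measured 32.5, 50.6 and 23.6 in BM and 1.26, 2.42 and 0.264 in Blood (4.03 ± 0.81 log2, adjusted p = 0.0114), and its call was lost without BM replicate 1. Serpinb1a, the inhibitor of neutrophil serine proteases, measured 281, 351 and 213 in BM and 16.2, 39.6 and 40.6 in Blood (3.17 ± 0.36 log2, adjusted p = 0.000219). Lyz2, lysozyme, measured 5139, 7305 and 5026 in BM and 1488, 1551 and 2865 in Blood (1.61 ± 0.30 log2, adjusted p = 0.00703, lost without Blood replicate 1). Srgn, the proteoglycan that packs proteases into granules, went the other way and was lower in BM (-1.21 ± 0.28 log2, adjusted p = 0.0254), a call lost without BM replicate 1 or Blood replicate 1 or 2. The serine protease genes Elane, Prtn3 and Ctsg, made at the promyelocyte stage, were below the filter: Elane measured 2.56, 9.66 and 0.0483 in BM and 0.0598, 0.0544 and 0.0521 in Blood.

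The promoters of the granule genes that carried this difference are shown with the letters that the C/EBP family of transcription factors, which drives granulocyte genes, is known to bind. The motif TTGCNNAA was searched on both strands in the 250 bases before each RefSeq start (GRCm38.p6). It occurred in 9.56% of all 32851 promoters and in 7.80% of the 11129 promoters of tested genes. Counted by gene, it was in 9.24% of the 8742 tested genes with a promoter entry. It was in 4 of the 12 called specific and gelatinase granule genes with an entry, against 1 of 8 that were tested and not called. These shares describe the windows and were not tested. The 3 called genes with the smallest p among those that held it are given 5′ to 3′ on the strand of the gene, with the motif in capitals.
Ngp, chr9:110419558-110419807, plus strand: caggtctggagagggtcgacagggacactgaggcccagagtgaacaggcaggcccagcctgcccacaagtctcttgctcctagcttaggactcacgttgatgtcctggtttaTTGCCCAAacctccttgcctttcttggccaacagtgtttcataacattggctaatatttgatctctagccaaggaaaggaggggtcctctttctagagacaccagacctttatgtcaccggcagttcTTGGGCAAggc
Ltf, chr9:111019042-111019291, plus strand: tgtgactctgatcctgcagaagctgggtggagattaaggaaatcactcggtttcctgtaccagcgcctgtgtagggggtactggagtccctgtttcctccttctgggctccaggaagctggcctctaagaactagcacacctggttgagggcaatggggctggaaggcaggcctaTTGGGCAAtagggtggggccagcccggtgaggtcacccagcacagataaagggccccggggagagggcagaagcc
Mmp8, chr9:7558179-7558428, plus strand: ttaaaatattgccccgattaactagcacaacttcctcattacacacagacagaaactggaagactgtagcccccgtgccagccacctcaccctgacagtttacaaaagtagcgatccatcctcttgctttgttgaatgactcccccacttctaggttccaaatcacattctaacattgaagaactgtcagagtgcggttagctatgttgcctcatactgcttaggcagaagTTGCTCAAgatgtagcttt
Ngp held the motif at 2 places, starting 138 and 11 bases before the start, Ltf at 75 bases and Mmp8 at 19 bases. Camp, the gene with the smallest adjusted p of the list, lies on chromosome 9 as these 3 do (109847379 to 109849617, mm10), and its window held none of these letters.

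Cebpe, which encodes the C/EBP factor needed for specific granules, was among the few lineage transcription factors that differed. It measured 73.9, 138 and 86.0 in BM and 2.57, 3.65 and 15.6 in Blood (3.90 ± 0.60 log2, adjusted p = 0.00223). Myb, the factor of dividing progenitors, measured 38.0, 6.57 and 25.8 in BM and 0.0598, 0.163 and 0.469 in Blood (4.03 ± 0.90 log2, adjusted p = 0.0217, lost without Blood replicate 1 or 2 and not tested without a BM library), and Lmo4, a transcriptional adaptor, was higher by 0.96 with a call lost without any library but BM replicate 3. These were the 3 genes higher among 28 tested, with 0 lower (7 at an unadjusted p under 0.05) and a median of -0.14. The share called was 10.7%, against 3.93% of all tested genes. The count of higher genes was 1 without BM replicate 1 or 2 or Blood replicate 1 or 2, and 3 genes were lower without BM replicate 2 and 1 without Blood replicate 3. The related Cebpa measured 40.1, 38.6 and 40.9 in BM and 13.8, 19.2 and 36.3 in Blood (0.87 ± 0.47 log2, adjusted p = 0.357). Cebpb measured 18.2, 0.744 and 13.5 in BM and 59.4, 10.5 and 26.7 in Blood (-1.77 ± 0.91 log2, adjusted p = 0.334). Cebpd measured 142, 213 and 136 in BM and 252, 241 and 198 in Blood (-0.52 ± 0.26 log2, adjusted p = 0.315), and none of them passed. Spi1, encoding the myeloid factor PU.1, did not pass either (-0.67 ± 0.25 log2, adjusted p = 0.172), and Gfi1 was below the filter.

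Genes of earlier neutrophil stages went the same way where they were called. Of 18 tested precursor genes, 7 were higher and 0 lower (1 at an unadjusted p under 0.05), with a median of 1.12. The count was 6 without BM replicate 2, 2 without BM replicate 1 and 3 without Blood replicate 1. Chil3, a chitinase-like secreted protein, measured 2248, 3891 and 2537 in BM and 40.2, 196 and 257 in Blood (4.46 ± 0.49 log2, adjusted p = 0.000209), a call lost under the robust prior. Fcnb, the lectin ficolin B, measured 37.8, 27.3 and 28.1 in BM and 0.0598, 0.0544 and 2.55 in Blood (4.32 ± 0.86 log2, adjusted p = 0.0106), where BM was uniform and Blood replicates 1 and 2 were at 0 counts. Its call was lost without BM replicate 1. Tuba1b (1.98), a tubulin, Ly6c2 (1.56), a surface antigen shared with monocytes, Aldh2 (1.28) and Hmgn2 (1.25), a nucleosome-binding protein, were the others beside Myb.

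**Figure D2:**
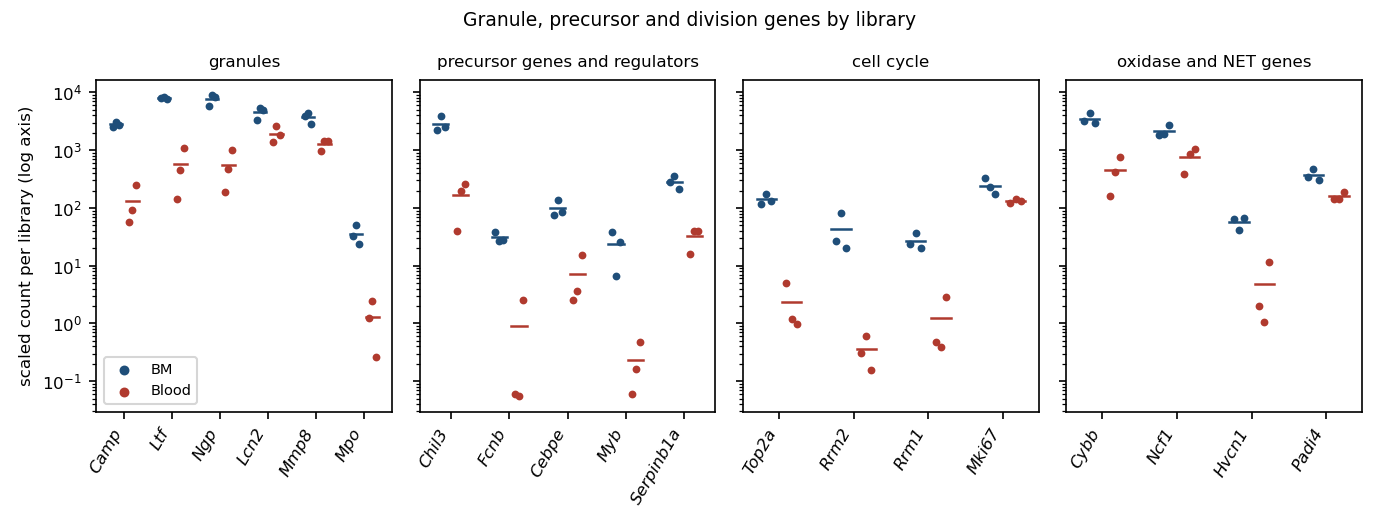
Scaled counts in each of the 3 BM (blue) and 3 Blood (red) libraries, on a log axis, with bars at the group means, for genes of granules, precursors, division and the oxidase. BM lies above Blood without overlap for each gene shown, as it does for 12.3% of all tested genes. Mki67 did not pass the test.

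Genes of cell division were higher in BM where they were called. Of 41 tested genes of the cell cycle and DNA replication, 11 were higher in BM, 0 were lower (2 at an unadjusted p under 0.05) and 30 were not called, with a median of 1.42. This count depended on single libraries: it was 5 without BM replicate 2, 3 without Blood replicate 3 and 2 without any of the other 4. Of the 11, Rrm2, Cenpe, Kif4, Dut, Ccna2 and Kif11 passed the filter only through the 3 BM libraries, so these 6 were not tested, and could not be counted, when a BM library was left out. Top2a, the topoisomerase that untangles chromosomes, measured 119, 176 and 129 in BM and 4.93, 1.17 and 0.966 in Blood (5.58 ± 0.59 log2, adjusted p = 0.000178), and its call held without each library. Rrm2, the small subunit of ribonucleotide reductase, measured 27.0, 80.1 and 19.95 in BM and 0.313, 0.599 and 0.157 in Blood (4.75 ± 0.86 log2, adjusted p = 0.00617), with a call that held without each Blood library. Cenpe, a motor of the kinetochore, and Dut, a nucleotide hydrolase, were at 0 counts in the 3 Blood libraries. Against a 3-count floor in each library, Cenpe was at least 52.0-fold and Dut at least 37.5-fold higher in BM. The other called members were Kif4 (3.88), Rrm1 (3.74), Ccna2 (3.88), Bub1b (3.77), Mcm7 (3.49), Kif11 (3.46) and Ccnb1 (3.37).

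Division genes did not all follow. Mki67, the proliferation antigen, measured 326, 231 and 174 in BM and 123, 144 and 129 in Blood, so it was well above the floor in Blood, and it did not pass (0.84 ± 0.27 log2, adjusted p = 0.106). Pcna, the replication clamp, measured 22.4, 0.286 and 22.5 in BM and 8.07, 15.3 and 18.7 in Blood (-0.68 ± 1.02 log2, adjusted p = 0.766), with BM replicate 2 near the floor, and its difference turned to 0.71 without that library. Of 27 tested replication histones 3 were higher and 0 lower (1 at an unadjusted p under 0.05), Hist1h2bg (4.26), Hist1h2br (3.56) and Hist1h2ap (2.05), around a median of 1.17, and the count was 2 without BM replicate 2, 1 without BM replicate 1 or 3 or Blood replicate 3, and 0 without Blood replicate 1. Letters bound by the E2F factors of the cell cycle, GCGGGAA on either strand, were in the 250-base window of 2 of 10 called and 4 of 25 uncalled division genes with an entry, and in 6.31% of the promoters of tested genes. B-cell markers, of a lineage that divides in marrow, moved with this group; in bulk samples, fewer cells of a type and less RNA per cell cannot be told apart. Summed over the list they measured 699, 937 and 250.03 in BM and 123, 137 and 213 in Blood, and Rag1, the recombinase of developing lymphocytes, measured 7.77, 30.8 and 11.5 in BM and 0.0598, 0.0544 and 0.0521 in Blood. Their part in the division genes, and in Myb, was not tested.

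Of the 11 tested genes of the NADPH oxidase and of neutrophil extracellular traps, 4 were higher and 0 lower (0 also at an unadjusted p under 0.05), with a median of 0.33. Cybb, the catalytic subunit of the oxidase and a member of the specific granule list too, measured 3257, 4356 and 2899 in BM and 163, 416 and 757 in Blood (3.21 ± 0.40 log2, adjusted p = 0.000531). Hvcn1, the proton channel that sustains the oxidase, measured 64.5, 41.8 and 67.1 in BM and 1.99, 1.06 and 11.6 in Blood (3.76 ± 0.73 log2, adjusted p = 0.00953, lost without BM replicate 1). Ncf1, a cytosolic subunit, measured 1863, 1917 and 2756 in BM and 393, 868 and 1030.1 in Blood (1.60 ± 0.32 log2, adjusted p = 0.0112). Padi4, the enzyme that citrullinates histones in traps, measured 337, 479 and 301 in BM and 142, 143 and 189 in Blood (1.22 ± 0.25 log2, adjusted p = 0.0146). The calls of Ncf1 and Padi4 were lost without Blood replicate 1, where the count was 2. The subunits Ncf4, with a difference of 0.33 (adjusted p = 0.498), and Cyba, with 0.53 (adjusted p = 0.374), did not pass.

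Interferon-induced genes were lower in BM, and among the 40 lists the type I interferon response had the most lower calls. Of 34 tested genes of the type I interferon response, 18 were lower, 1 was higher and 15 were not called, with a median of -1.69. The count of lower genes was 19 without BM replicate 2 or Blood replicate 3 and 10 without Blood replicate 2. Of 19 tested genes of the interferon-gamma response, 10 were lower and 0 higher (1 at an unadjusted p under 0.05), with a median of -1.48, and 5 were lower without BM replicate 1 or Blood replicate 1 or 2. With all 18 libraries in the fit the counts of lower genes were 1 and 2.

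Gbp2, a guanylate-binding GTPase that attacks pathogen vacuoles, measured 46.0, 53.2 and 55.6 in BM and 1238, 1177 and 320.1 in Blood (-3.89 ± 0.40 log2, adjusted p = 0.000152). BM libraries were within 46.0 to 55.6, and Blood replicate 3 was well below the other 2 Blood libraries yet above every BM library. Ifitm1, an antiviral membrane protein, measured 111, 79.0 and 187 in BM and 1689.7, 1526 and 541 in Blood (-3.23 ± 0.39 log2, adjusted p = 0.000357). Ifit3, which binds viral RNA complexes, measured 35.8, 38.9 and 20.1 in BM and 328, 252 and 128 in Blood (-2.81 ± 0.38 log2, adjusted p = 0.000935). Blood replicate 3 was the lowest Blood library for all 3 genes. It was also the lowest for Oasl2 at 325, 285 and 514 in BM and 2134, 2663 and 1095 in Blood (-2.34 ± 0.32 log2, adjusted p = 0.00103) and Zbp1, the sensor of Z-form nucleic acids, at 6, 8.97 and 4.59 in BM and 99.6, 118 and 54.7 in Blood (-3.58 ± 0.51 log2, adjusted p = 0.00138).

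Other type I members that were lower included Oas1a (-4.89), Oas3 (-1.71), Rsad2 (-1.77), which encodes viperin, Slfn5 (-1.97), Isg15 (-2.56), the ubiquitin-like modifier, and Ifit1 (-2.25); the last 2 lost their calls without BM replicate 1 or Blood replicate 1 or 2. Irf7, the amplifier of interferon production, measured 31.7, 64.3 and 48.6 in BM and 141, 117 and 64.0 in Blood and did not pass (-1.12 ± 0.37 log2, adjusted p = 0.118). Ifitm6 was the single member higher in BM, at 362, 327 and 286 in BM and 82.1, 104 and 121 in Blood (1.67 ± 0.25 log2, adjusted p = 0.00194), the reverse of its relatives Ifitm1, Ifitm2 (-1.503) and Ifitm3 (-1.68). Ifitm2 is in none of the lists and was chosen after its values were seen. In the gamma list, Irf1, an interferon-induced transcription factor, measured 139, 118 and 279 in BM and 458, 495 and 446 in Blood (-1.48 ± 0.29 log2, adjusted p = 0.0101). Irgm1, an immunity-related GTPase, measured 23.7, 18.6 and 40.0 in BM and 205, 179 and 93.5 in Blood (-2.49 ± 0.39 log2, adjusted p = 0.00243). Also lower were Gbp5 (-4.41), Gbp3 (-3.89), Gbp7 (-2.32), Igtp (-1.54), Irgm2 (-1.11) and Cd274 (-1.43), which encodes the inhibitory ligand PD-L1. Ifngr1, a chain of the interferon-gamma receptor, measured 165, 237 and 244 in BM and 491, 362 and 362 in Blood and missed the threshold (-0.92 ± 0.25 log2, adjusted p = 0.0520), passing without BM replicate 2.

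The promoters of these genes are shown for the interferon-stimulated response element, the letters that complexes of Stat and Irf factors bind. The motif, a pair of GAAA separated by any 2 bases, was searched on both strands of the same 250-base windows. It occurred in 2.98% of all promoters and 2.85% of those of tested genes. Counted by gene, it was in 3.455% of the 8742 tested genes with an entry. It was present in 9 of 17 called type I genes with a promoter entry and in 2 of 9 tested members not called, and in 7 of 9 called interferon-gamma genes and 2 of 4 not called. Over all genes with an entry, 26.0% of the 150 lower in BM and 3.18% of the 220 higher in BM held it. The windows below belong to the called members with the smallest p among those that held the motif, 3 of the type I list and 2 of the gamma list, 5′ to 3′ on the strand of the gene, with the motif in capitals.
Ifit3, chr19:34583279-34583528, plus strand: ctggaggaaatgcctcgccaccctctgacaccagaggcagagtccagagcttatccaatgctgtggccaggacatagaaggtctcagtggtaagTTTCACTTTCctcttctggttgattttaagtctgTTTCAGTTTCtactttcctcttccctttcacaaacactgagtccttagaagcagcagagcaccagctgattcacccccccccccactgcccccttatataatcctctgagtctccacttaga
Slfn5, chr11:82951852-82952101, plus strand: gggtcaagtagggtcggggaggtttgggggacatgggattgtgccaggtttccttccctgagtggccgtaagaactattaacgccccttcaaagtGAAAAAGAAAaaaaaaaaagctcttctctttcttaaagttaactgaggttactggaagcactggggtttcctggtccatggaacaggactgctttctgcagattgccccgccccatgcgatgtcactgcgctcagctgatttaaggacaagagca
Rsad2, chr12:26456453-26456702, minus strand: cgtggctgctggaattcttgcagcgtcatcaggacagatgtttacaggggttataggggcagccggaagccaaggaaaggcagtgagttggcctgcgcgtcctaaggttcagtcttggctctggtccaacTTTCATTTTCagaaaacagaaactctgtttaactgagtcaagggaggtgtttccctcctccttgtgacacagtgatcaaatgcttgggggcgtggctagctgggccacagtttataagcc
Gbp2, chr3:142620413-142620662, plus strand: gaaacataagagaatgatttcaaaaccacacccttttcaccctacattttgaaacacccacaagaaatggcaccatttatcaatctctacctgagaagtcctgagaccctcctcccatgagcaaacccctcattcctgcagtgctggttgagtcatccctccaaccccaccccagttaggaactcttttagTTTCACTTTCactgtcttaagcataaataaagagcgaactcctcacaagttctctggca
Irgm1, chr11:48871421-48871670, minus strand: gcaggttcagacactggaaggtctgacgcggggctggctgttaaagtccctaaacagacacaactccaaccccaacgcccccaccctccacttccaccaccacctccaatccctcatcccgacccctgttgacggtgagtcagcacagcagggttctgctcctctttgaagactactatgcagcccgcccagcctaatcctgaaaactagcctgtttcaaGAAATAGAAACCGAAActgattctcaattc
The motif began 156 and 122 bases before the start in Ifit3, 155 in Slfn5, where it lies in a run of adenines, 120 in Rsad2, 59 in Gbp2, and 30 and 24 in Irgm1, where the matches overlap.

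**Figure D3:**
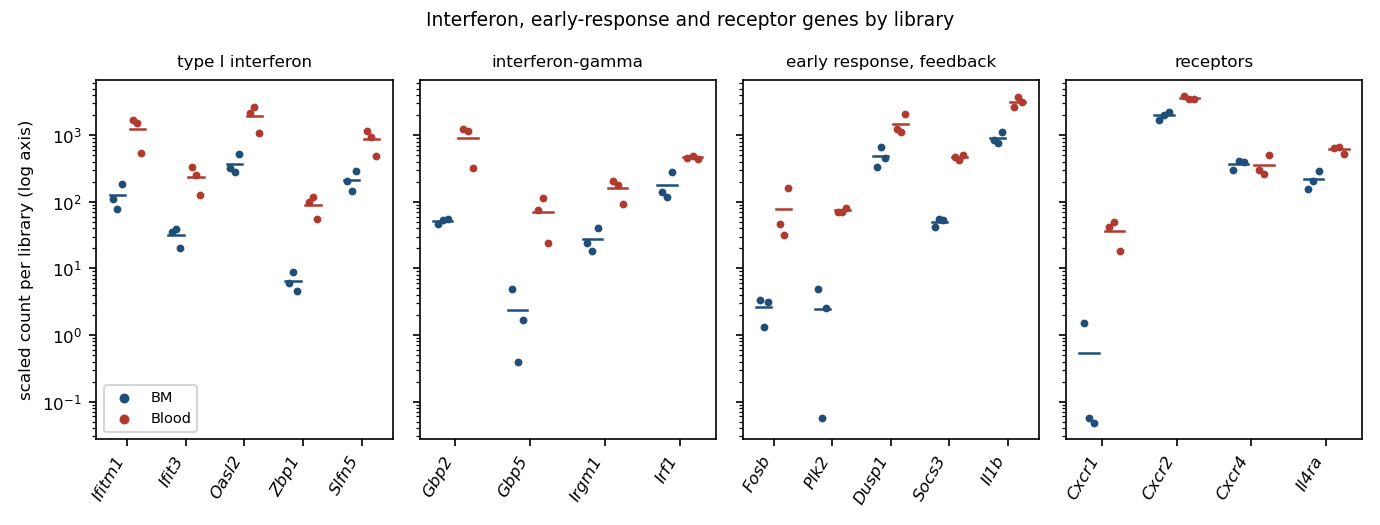
Scaled counts in each of the 3 BM (blue) and 3 Blood (red) libraries, on a log axis, with bars at the group means, for interferon, early-response and receptor genes. Blood lies above BM for every interferon and early-response gene shown, as it does without overlap for 11.7% of all tested genes. Cxcr4 overlaps between the groups and Cxcr2 did not pass the test.

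Genes that respond within minutes to stimulation were lower in BM where they were called. Of 32 tested immediate early genes, 5 were lower and 0 higher (1 at an unadjusted p under 0.05), with a median of -0.83. The share called was 15.6%, against 3.93% of all tested genes. The count was 6 without BM replicate 2, 3 without BM replicate 1 and 2 without Blood replicate 3. Plk2, a polo-like kinase induced by serum, measured 4.85, 0.0571 and 2.56 in BM and 71.5, 70.9 and 81.0 in Blood (-4.75 ± 0.73 log2, adjusted p = 0.00219). Fosb, a subunit of the AP-1 factor, measured 3.39, 1.31 and 3.14 in BM and 45.8, 31.7 and 159.8 in Blood (-4.17 ± 0.73 log2, adjusted p = 0.00487, lost without Blood replicate 3, its highest library). Dusp1, the phosphatase that shuts off stress kinases, measured 329.9, 665 and 450.2 in BM and 1244, 1126 and 2095 in Blood (-1.63 ± 0.30 log2, adjusted p = 0.00617), and Klf2 (-1.303) and Csrnp1 (-3.73) were the others. The best known members did not pass: Fos measured 294, 499.7 and 305 in BM and 600.2, 438 and 1169.9 in Blood (-0.92 ± 0.33 log2, adjusted p = 0.141), Jun differed by -1.55 (adjusted p = 0.214), and Egr1 measured 13.2, 11.5 and 29.9 in BM and 93.7, 22.5 and 392 in Blood (-2.44 ± 0.74 log2, adjusted p = 0.0848), with Blood replicate 3 far above the other Blood libraries. Such genes also respond to handling of cells, and how tissue was processed before sorting is not given in the sources used here, so handling and tissue cannot be told apart.

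Socs3, the feedback inhibitor of cytokine signalling through Stat3, had the smallest adjusted p of the genes in the lists of cell states. It measured 41.3, 55.5 and 54.3 in BM and 479, 425 and 509 in Blood (-3.21 ± 0.25 log2, adjusted p = 1.04e-05), and lies on chromosome 11, 117966079 to 117970047. It was the single called member of 17 tested feedback inhibitors (5.88%, against 3.93% of all tested genes). Their median was -0.41, and 2 were called without BM replicate 3. Il1b, the gene of interleukin-1 beta, measured 861, 759 and 1122 in BM and 2640.3, 3745 and 3195 in Blood (-1.81 ± 0.25 log2, adjusted p = 0.00105). Nfkbiz, a nuclear partner of NF-kappaB, measured 146, 137 and 113 in BM and 310.0, 354 and 449 in Blood (-1.48 ± 0.24 log2, adjusted p = 0.00357). These 2 were the called members of 29 tested NF-kappaB targets and cytokines (6.90%, against 3.93% of all tested genes). Both were lower in BM, with 0 higher (1 at an unadjusted p under 0.05). The list median was -0.61, and 4 were lower without BM replicate 2. Nfkbia, the inhibitor that NF-kappaB induces, did not pass (-0.90 ± 0.33 log2, adjusted p = 0.159), and neither did Tnf (0.92 ± 0.86 log2, adjusted p = 0.629) or Cxcl2 (-2.04 ± 0.97 log2, adjusted p = 0.291).

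Genes of neutrophil identity were mostly lower in BM where they were called. Of 29 tested identity genes 7 were lower, Ly6g alone was higher and 21 were not called, with a median of -0.46. The count of lower genes was 8 without BM replicate 2, 4 without BM replicate 1 and 3 without Blood replicate 1. Acod1, which makes itaconate, measured 14.5, 22 and 31.1 in BM and 179, 206 and 122 in Blood (-2.88 ± 0.36 log2, adjusted p = 0.000531). Grina measured 295, 339 and 400.4 in BM and 775, 1360.5 and 746 in Blood (-1.43 ± 0.26 log2, adjusted p = 0.00649). Hdc, the enzyme that makes histamine, measured 260.0, 361 and 386 in BM and 893, 641 and 724 in Blood (-1.17 ± 0.24 log2, adjusted p = 0.0128). Il1b, described above, Asprv1 (-1.42), a skin-type aspartic protease, Lrg1 (-1.32), a secreted leucine-rich glycoprotein, and Stfa2l1 (-1.14), a stefin protease inhibitor, completed the group. Csf3r, the receptor for the growth factor G-CSF, measured 2213, 1856 and 2717 in BM and 3947, 3592 and 4014 in Blood and did not pass (-0.78 ± 0.25 log2, adjusted p = 0.101), and Retnlg, a resistin-like secreted protein, did not either (0.59 ± 0.30 log2, adjusted p = 0.329).

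Receptors that guide release and recruitment showed a single call among 23 tested chemoattractant receptors (4.35%), near the 3.93% called over all tested genes. Cxcr1, a receptor for CXC chemokines, measured 1.51, 0.0571 and 0.0483 in BM and 41.4, 49.4 and 18.3 in Blood (-4.62 ± 0.86 log2, adjusted p = 0.00710), with BM replicates 2 and 3 at 0 counts. Cxcr2, the receptor that draws neutrophils out of the marrow, measured 1690.3, 1996 and 2249 in BM and 3839, 3525 and 3492 in Blood. Blood lay above BM in all libraries, as for 11.7% of all tested genes. The difference just missed the threshold (-0.88 ± 0.24 log2, adjusted p = 0.0563), which it passed in 7 of 19 alternatives. Cxcr4, the receptor that retains them, measured 305, 416 and 396 in BM and 301, 264 and 512 in Blood and overlapped (0.10 ± 0.27 log2, adjusted p = 0.875). Its difference turned to -0.09 without Blood replicate 2. The formyl peptide receptors Fpr1 (0.51 ± 0.25 log2, adjusted p = 0.303) and Fpr2 (0.15 ± 0.22 log2, adjusted p = 0.768) and the chemokine receptor Ccr1 (-0.39 ± 0.24 log2, adjusted p = 0.428) did not pass. Reads of Cxcr1 and Cxcr2, which are close relatives, may be shared in part.

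Adhesion genes were divided, with 2 higher, 2 lower and 19 not called among 23 tested (17.4% called, against 3.93% of all tested genes). Vcl, the cytoskeletal linker vinculin, measured 382, 716 and 411 in BM and 209.6, 224 and 141 in Blood (1.36 ± 0.28 log2, adjusted p = 0.0142). Spn, the sialomucin CD43, measured 139, 187 and 316 in BM and 42.3, 35.8 and 106 in Blood (1.87 ± 0.40 log2, adjusted p = 0.0166). Selplg, the selectin ligand PSGL-1, measured 544, 926 and 936 in BM and 1686, 1886 and 1629.8 in Blood (-1.15 ± 0.25 log2, adjusted p = 0.0188), and Jaml (-0.87), a junctional adhesion molecule, was lower too. Except for Vcl, these calls were lost without at least 3 of the 6 libraries, each left out in turn. Of the integrins, Itgam, the CD11b chain used in the sort, measured 2835, 2911 and 2353 in BM and 1521, 1402 and 1644 in Blood (0.82 ± 0.23 log2, adjusted p = 0.0627), Itgb2 differed by 0.26 (adjusted p = 0.601) and Itga4 by -0.69 (adjusted p = 0.184).

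Cytokine receptors were lower in BM where called. Of 24 tested, 3 were lower (12.5% called, against 3.93% of all tested genes) and 0 higher (1 at an unadjusted p under 0.05). Their median was -0.50, and 6 were lower without BM replicate 2. Il4ra, the shared chain for interleukins 4 and 13, measured 157, 206 and 289.6 in BM and 647, 669 and 525 in Blood (-1.53 ± 0.26 log2, adjusted p = 0.00384). Il13ra1, its partner, measured 195, 469 and 330.1 in BM and 827, 932 and 839 in Blood (-1.47 ± 0.28 log2, adjusted p = 0.00876). Both chains of one receptor were thus lower without overlap, a separation seen for 11.7% of all tested genes. Csf2rb2, a mouse copy of the common beta chain, measured 70.9, 36.9 and 78.3 in BM and 263, 272 and 144 in Blood (-1.86 ± 0.34 log2, adjusted p = 0.00649) and may share reads with Csf2rb. Among 30 pattern recognition genes 3 were higher and 3 lower (20.0% called, against 3.93% of all tested genes). Without BM replicate 2 there were 1 higher and 5 lower, and 0 were lower without BM replicate 1 or Blood replicate 1 or 3. Clec12a, an inhibitory lectin for uric acid crystals, measured 428, 453 and 372 in BM and 70.9, 109 and 182 in Blood (1.88 ± 0.30 log2, adjusted p = 0.00302), and Clec5a (0.90) and Clec4a2 (1.22) were the other lectins higher in BM. Cd14, the co-receptor for lipopolysaccharide, measured 7.04, 10.8 and 14.8 in BM and 65.9, 35.8 and 61.6 in Blood (-2.23 ± 0.51 log2, adjusted p = 0.0238), and Clec7a, the beta-glucan receptor dectin-1 (-0.98), and Myd88, the adaptor of Toll-like receptors (-1.37), were lower as well. Of these 6 only Clec12a kept its call without each library. Tlr2 (-0.73 ± 0.38 log2, adjusted p = 0.341) and Tlr4 (-0.71 ± 0.24 log2, adjusted p = 0.121) did not pass. Siglece (-1.25 ± 0.27 log2, adjusted p = 0.0168) and Cd300ld (-1.12 ± 0.24 log2, adjusted p = 0.0181) were the 2 called members, both lower, of 17 tested Fc and paired receptors. They made up 11.8%, against 3.93% of all tested genes, and neither kept its call without BM replicate 1 or Blood replicate 2.

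Antigen presentation genes that were called went in opposite directions by class, apart from Ctss. Of 18 tested class I genes 4 were lower and 0 higher (0 also at an unadjusted p under 0.05), with a median of -0.89: H2-K1 (-1.18), B2m (-1.07), the invariant light chain, H2-Q4 (-1.95) and H2-T23 (-0.96). The count was 5 without BM replicate 2, 1 without Blood replicate 3 and 0 without BM replicate 1 or Blood replicate 1. H2-D1 measured 1317, 2211 and 2104 in BM and 3756, 2696 and 4059 in Blood and did not pass (-0.91 ± 0.28 log2, adjusted p = 0.0851). Of 11 tested class II genes, 3 were higher, with a median of 1.46, and Ctss, the protease that processes the invariant chain, was lower at 105, 164 and 129.6 in BM and 449.8, 417 and 277 in Blood (-1.51 ± 0.27 log2, adjusted p = 0.00542). Cd74, the invariant chain, measured 81.5, 189 and 43.0 in BM and 13.8, 13.3 and 30.2 in Blood (2.23 ± 0.52 log2, adjusted p = 0.0250). H2-Aa measured 51.4, 69.2 and 25.1 in BM and 1.495, 0.708 and 16.3 in Blood (3.45 ± 0.86 log2, adjusted p = 0.0353). H2-Eb1 measured 61.8, 49.0 and 26.3 in BM and 10.8, 10.1 and 9.43 in Blood (1.99 ± 0.53 log2, adjusted p = 0.0496). The count of higher genes was 0 without BM replicate 1 or 2 or Blood replicate 1 or 2. The class II genes moved with the B-cell markers, of which 16 of 17 tested had a positive difference with Rag1 the single one called. Rag1 passed the filter only through the BM libraries, so it was not tested without a BM library. The number of B-cell markers called was 3 without BM replicate 3 or Blood replicate 3, 6 after quantile normalization, 5 with a weight per library, 8 with the Spleen libraries in the fit, and 0 without any of the other 4 libraries. Among them Ms4a1, encoding CD20, measured 16.8, 92.6 and 20.7 in BM and 6.01, 0.619 and 5.62 in Blood (2.97 ± 0.86 log2, adjusted p = 0.0718). Cd79a measured 30.4, 32.3 and 21.2 in BM and 5.44, 6.80 and 8.28 in Blood (1.88 ± 0.62 log2, adjusted p = 0.117). Ighm measured 317, 499 and 63.0 in BM and 27.0, 48.5 and 83.7 in Blood (2.15 ± 0.58 log2, adjusted p = 0.0546). The part of such cells in the class II difference was not tested.

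Few metabolic and housekeeping genes were called. None of 71 tested nuclear genes of oxidative phosphorylation, 77 cytosolic ribosomal protein genes, 29 genes of ribosome biogenesis or 12 clock genes was called by limma or with voom weights. Of them, 9, 8, 2 and 5 had an unadjusted limma p under 0.05, as had 2069 of all 11770 tested genes. Other alternatives called at most 1, 2, 1 and 2 of them: after quantile normalization 1, 2, 0 and 1 were lower, and without BM replicate 2 there were 2 ribosomal protein genes and 2 clock genes lower. All 10 tested mitochondrially encoded genes had a positive difference, with a median of 1.04, and 2 were called: mt-Nd5 measured 388, 477 and 265 in BM and 102, 102 and 173 in Blood (1.58 ± 0.29 log2, adjusted p = 0.00649) and mt-Nd2 241, 297 and 192 in BM and 82.4, 116 and 142 in Blood (1.11 ± 0.28 log2, adjusted p = 0.0369). Their count was 6 without BM replicate 3 and 1 without BM replicate 1 or 2 or Blood replicate 1 or 2. Mitochondrially encoded genes took 0.457, 0.448 and 0.272% of the counts in BM and 0.218, 0.228 and 0.209% in Blood. Of 25 tested genes of glycolysis and the pentose phosphate pathway 8.00% were called, against 3.93% of all tested genes. Pgam1 (1.37 ± 0.32 log2, adjusted p = 0.0247) was higher and Slc2a1, the glucose transporter GLUT1 (-1.498 ± 0.37 log2, adjusted p = 0.0362), lower. Both calls were lost without BM replicate 1 or 3 or Blood replicate 1 or 2. The chaperones Hsp90b1 (1.43 ± 0.30 log2, adjusted p = 0.0164) and Pdia3 (1.62 ± 0.37 log2, adjusted p = 0.0246) were higher among 19 tested genes of protein folding in the endoplasmic reticulum, and the cytosolic Hsp90ab1 (1.35 ± 0.26 log2, adjusted p = 0.00885) among 10 heat shock genes. These 3 calls were lost without BM replicate 1 or Blood replicate 1. Of 21 tested genes of apoptosis and survival, Mcl1, the survival protein neutrophils depend on (-0.94 ± 0.24 log2, adjusted p = 0.0387), and Casp4 (-1.66 ± 0.35 log2, adjusted p = 0.0155) were lower and Xiap, a caspase inhibitor (0.92 ± 0.24 log2, adjusted p = 0.0494), higher; the call of Xiap and that of Mcl1 were lost when any library was left out, and that of Casp4 without BM replicate 1 or Blood replicate 2.

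**Figure D4:**
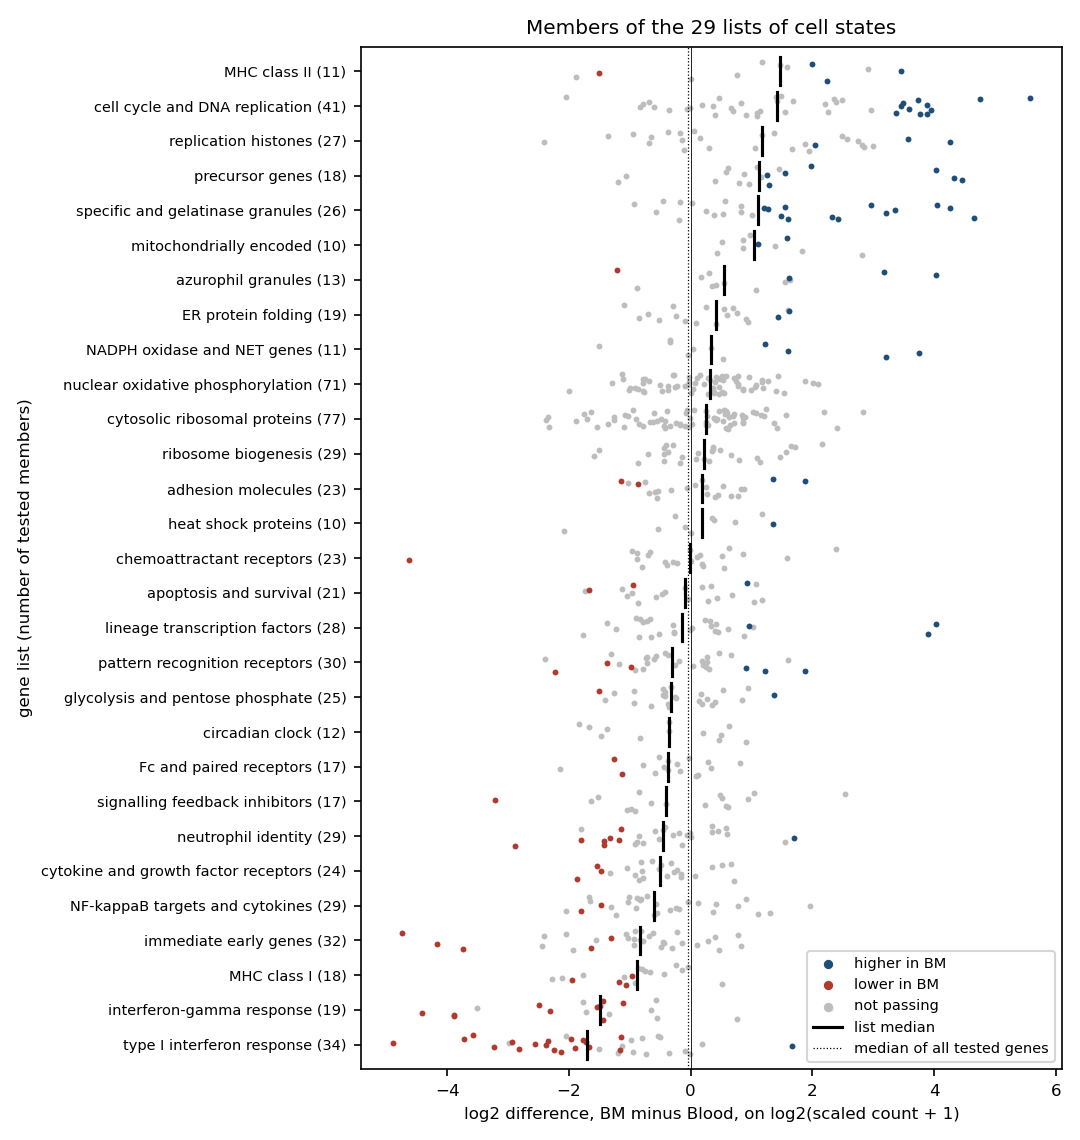
Log2 difference, BM minus Blood, of each tested member (points) of the 29 lists of cell states, ordered by the list median (bar), with the number of tested members beside each name. Interferon lists lie furthest to the left (medians -1.69 and -1.48) and the MHC class II list furthest to the right (1.46). Cell cycle (1.42), replication histone (1.17), precursor (1.12), granule and mitochondrially encoded (1.04) lists also lie to the right of the median of all tested genes (dotted, -0.05). Most members of the larger metabolic lists lie near that median.

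Protein-coding calls were also ranked by size of change among genes with a mean of at least 20 in a group and no overlap between groups, leaving out markers of other cells and sex-linked genes. Higher genes near the top of that ranking included Sipa1l2, a Rap GTPase regulator, at 50.9, 158 and 118 in BM and 27.1, 0.132 and 0.0521 in Blood (4.95 ± 1.01 log2, adjusted p = 0.0130), and Syne1, a nuclear envelope spectrin-repeat protein, at 63.7, 125 and 22.3 in BM and 0.0598, 0.0544 and 6.51 in Blood (4.82 ± 0.93 log2, adjusted p = 0.00895). In both, Blood had a library at the floor and another well above it, and both calls were lost without BM replicate 1. Ptgr1, a prostaglandin reductase, was at 0 counts in the 3 Blood libraries and at 20.1, 27.4 and 12.9 in BM, at least 60.5-fold higher against the 3-count floor (limma adjusted p = 0.00954). Ptgr1 passed the filter only through the BM libraries, so it was not tested without a BM library. Adpgk, an ADP-dependent glucokinase, was higher by 4.24, a call lost without any BM library.

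Lower genes in the same ranking included Apol11b, of the apolipoprotein L family, at 0.0522, 0.171 and 0.145 in BM and 36.9, 78.9 and 77.1 in Blood (-5.78 ± 0.79 log2, adjusted p = 0.00105). It was near the floor in every BM library and passed the filter only through Blood, so it was not tested without a Blood library. Cxcr5, the chemokine receptor best known from B-cell follicles, measured 2.14, 0.171 and 0.338 in BM and 99.1, 40.3 and 10.9 in Blood (-4.43 ± 0.94 log2, adjusted p = 0.0156), the reverse of the B-cell markers above. Tgm1, a transglutaminase, measured 3.39, 0.0571 and 2.27 in BM and 62.0, 55.1 and 27.9 in Blood (-4.24 ± 0.80 log2, adjusted p = 0.00755). Entpd3, an ectonucleotidase, measured 2.97, 0.0571 and 4.59 in BM and 62.3, 64.6 and 34.1 in Blood (-4.20 ± 0.78 log2, adjusted p = 0.00720). Ahr, the aryl hydrocarbon receptor, measured 2.56, 0.0571 and 3.53 in BM and 59.0, 81.2 and 13.2 in Blood (-4.001 ± 0.89 log2, adjusted p = 0.0208). BM replicate 2 was at 0 counts for these 3. Sema6b, a semaphorin, measured 5.37, 0.629 and 7.68 in BM and 73.4, 60.6 and 76.2 in Blood (-3.98 ± 0.68 log2, adjusted p = 0.00429), with Blood libraries close together.

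Markers of other cells differed between the groups too. Erythroid markers summed to 365, 259 and 322 in BM and 3145, 9266 and 5114 in Blood, and 5 of 17 tested were lower in BM with 0 higher (0 also at an unadjusted p under 0.05). Hbb-bs, a beta-globin gene, measured 96.3, 47.8 and 61.6 in BM and 2289.9, 7862 and 3797 in Blood (-5.94 ± 0.37 log2, adjusted p = 9.16e-07). Hba-a2 measured 12.5, 32.4 and 9.23 in BM and 369, 482 and 633 in Blood (-4.86 ± 0.40 log2, adjusted p = 1.31e-05). Alas2, the erythroid enzyme of heme synthesis, measured 3.496, 0.286 and 0.435 in BM and 44.0, 116 and 90.0 in Blood (-5.27 ± 0.76 log2, adjusted p = 0.00143); Hbb-bt (-6.83) and Bpgm (-3.56) were the others. Near-identical globin copies share reads. Klf1, Epor, Car1 and Rhag, of the same list, were below the filter.

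Eosinophil, basophil and mast cell markers summed to 252, 319 and 156 in BM and 118, 132 and 97.8 in Blood, with Ear2, an eosinophil ribonuclease, called higher at 50.2, 107 and 47.2 in BM and 0.0598, 3.48 and 5.73 in Blood (4.34 ± 0.78 log2, adjusted p = 0.00560). Monocyte and macrophage markers overlapped in sum, at 921, 1199 and 841 in BM and 662, 1164 and 847 in Blood: Ly6c2 and Mrc1, the mannose receptor (3.86 ± 0.85 log2, adjusted p = 0.0188), were higher and Csf1r, the macrophage growth factor receptor, was lower (-1.23 ± 0.27 log2, adjusted p = 0.0182). The calls of Mrc1 and Csf1r were lost without BM replicate 1 or Blood replicate 2. Plasma cell markers summed to 336, 659 and 40.0 in BM and 38.4, 29.3 and 63.5 in Blood, so BM replicates 1 and 2 were high and replicate 3 was at the level of Blood. Megakaryocyte and platelet markers had 0 called by limma of 9 tested, also with voom weights, 5 at an unadjusted p under 0.05, and a median of -2.36. With the Spleen libraries in the fit 3 were lower, 2 after quantile normalization or with a weight per library, and 1 without Blood replicate 3. Ppbp, a platelet chemokine, measured 1.304, 0.0571 and 0.0483 in BM and 59.9, 54.8 and 2.24 in Blood (-4.02 ± 1.11 log2, adjusted p = 0.0577). T and NK cell, dendritic cell and stromal markers had 0 called by limma or with voom weights of 7, 5 and 8 tested (0, 1 and 1 at an unadjusted p under 0.05), and Cd3e was below the filter. Their part in the interferon, granule or receptor differences was not tested.

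**Figure D5:**
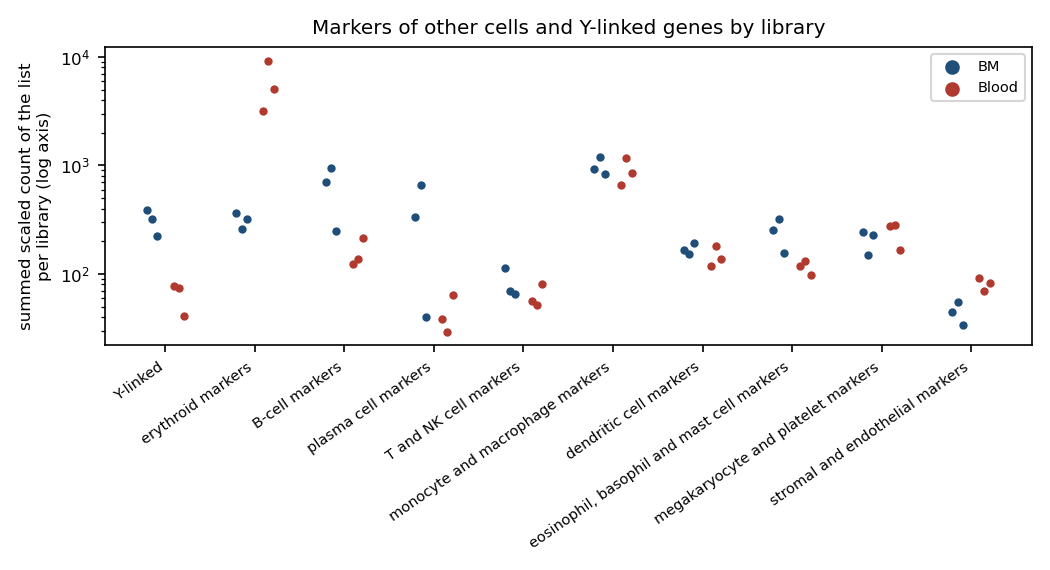
Scaled counts summed over each list of other-cell markers and over the Y-linked genes, on a log axis, for the 3 BM (blue) and 3 Blood (red) libraries. Erythroid sums are at least 3145 in Blood and at most 365 in BM, while B-cell and Y-linked sums are higher in each BM library than in any Blood library.

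Y-linked genes separated the groups in part. Eif2s3y measured 176, 55.9 and 71.6 in BM and 0.179, 0.708 and 0.156 in Blood (6.09 ± 0.76 log2, adjusted p = 0.000467) and was not tested without a BM library. Ddx3y measured 104, 142 and 59.4 in BM and 11.4, 1.69 and 1.61 in Blood (4.44 ± 0.67 log2, adjusted p = 0.00194), while Kdm5d measured 69.5, 76.3 and 46.5 in BM and 28.9, 38.4 and 23.3 in Blood (1.06 ± 0.38 log2, adjusted p = 0.150). Uty measured 35.4, 49.0 and 44.1 in BM and 37.1, 33.2 and 16.4 in Blood (0.62 ± 0.44 log2, adjusted p = 0.497), neither passing. All 4 genes had counts above 0 in every library. The sex of the mice is not given in the labels, and its part in the BM to Blood differences was not tested.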

How the data were processed

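The labels describe 6 libraries used here, 3 each from BM and Blood, whose total RNA was amplified by the Ovation Single Cell kit before single-end sequencing of 61 nt. Per the submitters' processing notes, the tools were RSEM 1.3.1, CASAVA and limma and the build mm10, with no order or annotation given; strand use is not given in the sources used here. In the deposited table each of 32328 identifiers has a signal: as read from the values, the authors' estimated count with 0.5 added, scaled to 1e6 per effective library. Its label names a per-length unit that the values do not carry, so the planned test on log2 values was kept for this signal. GENCODE M21 (GRCm38) named 31820 identifiers and left 508 unnamed, and 0 value columns were left unmapped.

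The 6 libraries were fitted alone with limma 3.58.1 in R 4.3.3 as 2 group means on log2(value + 1), with 4 residual degrees of freedom, a trended prior and Benjamini-Hochberg adjustment; every adjusted p is from such a limma fit. The fit was tested on simulated data. Alternatives changed the scaling, the pseudocount (0.25 and 8), the filter, the libraries in the fit, the prior and the weights, added a replicate block, or left out a library. Members and lists (29 of cell states, 9 of other cells and 2 of sex-linked genes) were chosen with earlier results of these data known, and the motifs after the calls were seen. Named genes were the 12 higher and 12 lower protein-coding calls of largest change with a mean of at least 20 and no overlap, up to 6 calls per list by smallest p, further list members as examples, and fixed genes. Xist was not analysed here, and some genes that the rule names are not reported here. Promoter sequences are from RefSeq (GRCm38.p6), matched by symbol for 8742 of 11770 tested genes. Counts recovered at the floor are estimates, so a floor of 3 counts covers counting error only. Genes with near-identical copies (globins, Gbp, Ifitm, Oas1, Ifit3, class I and histone genes) and genes overlapping on opposite strands are uncertain singly.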

Additional observations from a re-analysis of the deposited data

How the results depend on the processing

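The count of 463 called genes, 267 higher and 196 lower, depended on how the spread was estimated. It was 5 (3 higher, 2 lower) with a constant prior, 15 (12 and 3) with no filter on low values, 48 (22 and 26) with all 18 libraries in the fit and 306 (170 and 136) with voom weights on estimated counts. With a weight per library 654 were called, 343 higher and 311 lower, and that weight was 0.323 for BM replicate 2 against 1.02 to 1.39 for the others. Leaving out each library gave 186 to 478 calls, 98 to 231 higher and 74 to 256 lower. Quantile normalization, median-of-ratios size factors, a pseudocount of 0.25 or 8, a value of at least 5 in 3 libraries, Spleen libraries added to the fit and a robust prior gave 387 to 662 calls. The share of called genes that were higher was 57.7% and fell to 46.4% (222 of 478) without BM replicate 2, 45.8% with all 18 libraries and 51.3% (98 of 191) without BM replicate 1, and rose to 80.0% with no filter; other scalings gave 51.9% and 52.1%. Of the 136 called genes named, 0 reversed, 2 kept their call in all 19 alternatives and 57 lost it in 6 or more, at most 12. Several alternatives, such as those of the prior, left the differences as they were, so no gene could reverse in them. Among genes not called, Pcna reversed to 0.174 with a weight per library and lay between -1.38 and 0.713, and Cxcr4 between -0.0890 and 0.387, without each library. The cause was not tested.

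Same-numbered BM and Blood libraries did not deviate together (r = -0.02, -0.00475 and -0.02 across genes for replicates 1, 2 and 3). Whether the numbers pair samples cannot be decided from this, because the labels do not name the animals. The library names carry the letters A, B and C in BM and A, Brep and D in Blood. Replicate number 3 therefore joined libraries of different letters, here and in the replicate block. With the replicate block the fit called 460 genes, 260 higher and 200 lower, 414 of them called without it. With 3 libraries a group, genes at low values that did not pass may still differ.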
